A study of Neurospora crassa with 3 samples.

Results

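The 10 genes described here act in plant cell wall breakdown in the filamentous fungus Neurospora crassa, 6 that encode secreted enzymes and 4 that encode regulators. They were taken by locus tag, 10 of the 9730 genes in the count tables, and the reference gene table (RefSeq, assembly NC12) gave the listed symbol for all 10. The enzyme genes are cbh-1 (NCU07340), gh6-2 (NCU09680), gh5-1 (NCU00762), gh3-4 (NCU04952), gh10-2 (NCU08189) and gh10-4 (NCU07130). The regulator genes are clr-1 (NCU07705), clr-2 (NCU08042), xlr-1 (NCU06971) and cre-1 (NCU08807).

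Cellulose is broken down by enzymes that act together. Endoglucanases cut inside the chain, cellobiohydrolases release the disaccharide cellobiose from chain ends, and beta-glucosidases split cellobiose to glucose, while xylanases cut the xylan backbone of hemicellulose. In N. crassa the zinc cluster transcription factors CLR-1 and CLR-2 are needed for induction of cellulase genes on cellulose, XLR-1 for xylanase genes, and the zinc finger protein CRE-1 represses many of these genes when a preferred sugar is present.

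Poly-A-selected RNA was sequenced from 3 genotypes with 2 libraries each. The genotype labelled H3G34R carries histone H3 with arginine in place of a glycine in its tail, and its libraries came from strains N5247 (replicate 1) and N5248 (replicate 2). The genotype labelled set-2 ash1(Y888F) is described by the submitters as joining a deletion of set-2, a histone H3 lysine methyltransferase gene, to a tyrosine-to-phenylalanine change in ASH1, another enzyme of that class, in strains N6266 (replicate 1) and N6267 (replicate 2). The genotype labelled set-2 H3G34R is described as joining the same deletion to the histone change, and both of its libraries came from 1 strain, N6777. All cultures were shaken in liquid Vogel's medium at 32 °C for 18 h. The labels give the tissue as mycelia and the source as germinated conidia, and the carbon source is not given in the sources used here. All 3 groups are mutant, so the comparisons are among mutants, and wild type enters only through the authors' deposited tables. H3G34R and set-2 H3G34R share the histone change and differ by the set-2 label, whereas the groups labelled set-2 share that label and differ in the second change.

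Sense reads in genes numbered 7519427 to 9830948 per library. Reads were still counted on set-2 (NCU00269) in the groups labelled set-2. It had 171 and 123 sense reads in the set-2 ash1(Y888F) libraries and 299 and 269 in the set-2 H3G34R libraries, against 322 and 252 in H3G34R. Which part of the gene was deleted is not known here, so these counts do not test the deletion. The groups are therefore called by their labels. Markers of conidia and conidiation, the other cell type that such a culture could hold, were detected in every group, all 6 of 6 in both libraries. The marker con-13 had 19 and 20 sense reads in H3G34R, but only 2 and 1 in set-2 ash1(Y888F) and 3 and 5 in set-2 H3G34R. The summed level of the 6 markers was 174 to 238 CPM (sense reads per 1000000, scaled by edgeR's trimmed mean of M values) in H3G34R, 265 to 348 CPM in set-2 ash1(Y888F) and 615 to 1292 CPM in set-2 H3G34R. In set-2 H3G34R, eas alone made up 164 and 658 CPM of this sum. Of these 6 markers, 4 were higher and 1 lower in set-2 H3G34R than in H3G34R, and 3 were higher than in set-2 ash1(Y888F). In set-2 ash1(Y888F), 0 of the 6 were higher than in H3G34R and 2 were lower. The markers lower than in H3G34R include con-13 in both groups, and con-13 passed the filter on low counts only through H3G34R. Over all genes tested, 30.7% were higher and 31.1% lower in set-2 H3G34R than in H3G34R. The shares were 18.2% and 19.9% for set-2 H3G34R against set-2 ash1(Y888F), and 26.3% and 25.5% for set-2 ash1(Y888F) against H3G34R. The 3 mycelial housekeeping genes (actin, beta-tubulin and elongation factor) summed to 22737 to 23606, 23309 to 25731 and 17084 to 18300 CPM in the same order of groups. Elongation factor made up most of each sum, with 20141 and 20915, 21450 and 19633, and 15378 and 14306 CPM. Actin had 1594 and 1624, 2817 and 2469, and 2000 and 1863 CPM. Beta-tubulin had 1001 and 1067, 1464 and 1207, and 922 and 915 CPM. Of the 3, 0 were higher and 1 lower in set-2 H3G34R than in H3G34R. Against set-2 ash1(Y888F), 0 were higher and 2 lower. The part of the conidial and mycelial markers in the results for set-2 H3G34R was not tested. In bulk RNA of this kind, fewer cells of a type and less RNA per cell cannot be told apart.

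**Figure D1:**
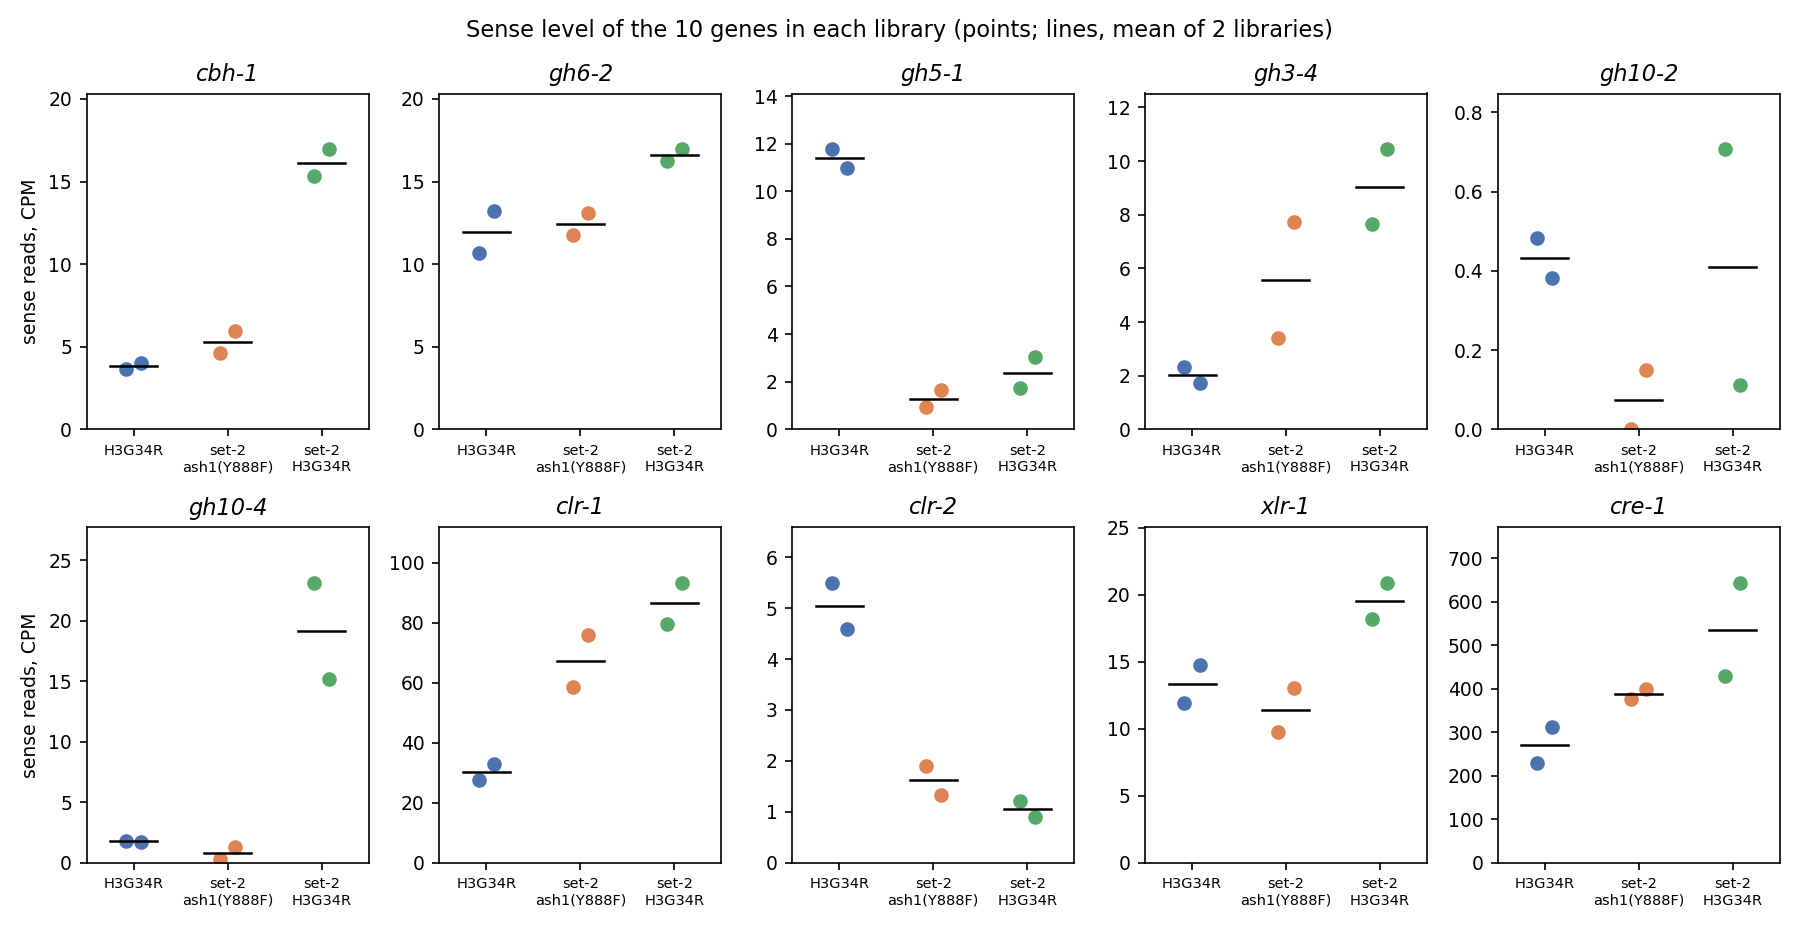
Sense level in CPM (y axis, linear, from 0) of each of the 10 genes in the 6 libraries, with points for libraries and lines for the mean of 2. In set-2 H3G34R, cbh-1 and gh10-4 lie above the other groups, whereas gh5-1 and clr-2 are highest in H3G34R, at 11.4 and 5.04 CPM on average.

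The 6 enzyme genes did not move as 1 block. In set-2 H3G34R the cellobiohydrolase gene cbh-1, the beta-glucosidase gene gh3-4 and the xylanase gene gh10-4 were 4.19-fold, 4.46-fold and 10.7-fold higher than in H3G34R (fold changes of the edgeR fit), while the endoglucanase gene gh5-1 was 4.81-fold lower. In set-2 ash1(Y888F), gh5-1 was 8.81-fold lower than in H3G34R and gh3-4 was 2.72-fold higher. Summed over the 6 genes, sense levels were 30.7 and 32.0 CPM in H3G34R, 21.0 and 29.8 CPM in set-2 ash1(Y888F) and 64.8 and 62.6 CPM in set-2 H3G34R, a description with no test.

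cbh-1 encodes a cellobiohydrolase, the type of enzyme that makes up much of the secreted cellulase of this fungus. It had 38 and 42 sense reads in H3G34R, 34 and 40 in set-2 ash1(Y888F), and 152 and 151 in set-2 H3G34R. In CPM these were 3.66 and 4.02, 4.61 and 5.94, and 15.3 and 16.9. Both set-2 H3G34R libraries thus lay far above the other 4. Against H3G34R the log2 difference was 2.07 (SE 0.216, edgeR quasi-likelihood test, Benjamini-Hochberg adjusted p = 3.60e-04), and against set-2 ash1(Y888F) it was 1.61 (SE 0.218, adjusted p = 0.00295). Set-2 ash1(Y888F) against H3G34R gave 0.45 (SE 0.240, adjusted p = 0.152), not past the threshold of 0.05, although the libraries of these groups did not overlap.

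The other cellobiohydrolase gene among the members, gh6-2, encodes an enzyme that works from the opposite chain end. It had the smallest fold differences of the tested enzyme genes. Its libraries had 111 and 138 sense reads in H3G34R, 87 and 88 in set-2 ash1(Y888F), and 161 and 151 in set-2 H3G34R. The group means were 11.9 ± 1.77, 12.4 ± 0.901 and 16.6 ± 0.491 CPM (SD, n = 2 each). In set-2 H3G34R its 2 libraries were the highest of the 6, with a log2 difference of 0.47 (SE 0.181, adjusted p = 0.0568) from H3G34R and 0.42 (SE 0.185, adjusted p = 0.119) from set-2 ash1(Y888F). That from H3G34R passed with only the 4 libraries compared (adjusted p = 0.0477) and without set-2 ash1(Y888F) replicate 1 (0.0469) or replicate 2 (0.0457). H3G34R and set-2 ash1(Y888F) overlapped, with a log2 difference of 0.06 (SE 0.187, adjusted p = 0.821).

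gh5-1, the endoglucanase gene, went the other way from cbh-1. H3G34R had 122 and 115 sense reads, set-2 ash1(Y888F) 7 and 11, and set-2 H3G34R 17 and 27. Levels were 11.8 and 10.999 CPM, 0.949 and 1.63 CPM, and 1.72 and 3.03 CPM in that order. The 2 H3G34R libraries stood well above all 4 of the others, and those 4 did not overlap between their groups. Relative to H3G34R, the log2 difference was −3.14 (SE 0.373, adjusted p = 8.20e-04) in set-2 ash1(Y888F) and −2.27 (SE 0.323, adjusted p = 0.00116) in set-2 H3G34R. Between the latter groups it was 0.87 (SE 0.439, adjusted p = 0.160), which did not pass. The reads of cbh-1 per read of gh5-1, a ratio in which library size cancels, were 0.311 and 0.365 in H3G34R, 4.86 and 3.64 in set-2 ash1(Y888F), and 8.94 and 5.59 in set-2 H3G34R.

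gh3-4, which encodes a beta-glucosidase, was lowest in H3G34R. It had 24 and 18 sense reads there, 25 and 52 in set-2 ash1(Y888F), and 76 and 93 in set-2 H3G34R, or 2.31 and 1.72, 3.39 and 7.72, and 7.67 and 10.4 CPM. Both groups labelled set-2 lay above H3G34R without overlap, but they overlapped each other. Against H3G34R the log2 difference of set-2 H3G34R was 2.16 (SE 0.427, adjusted p = 0.00467). For set-2 ash1(Y888F) against H3G34R the value was 1.44 (SE 0.456, adjusted p = 0.0349), and this call was lost with most left-out libraries. The adjusted p was 0.0919 without H3G34R replicate 1, 0.155 without H3G34R replicate 2, 0.0573 and 0.0600 without set-2 H3G34R replicate 1 or 2, and 0.0654 with only the 4 libraries compared. Without set-2 ash1(Y888F) replicate 2, the higher of that pair, the log2 difference was 0.75 (adjusted p = 0.184). Between the groups labelled set-2 the difference was 0.71 (SE 0.396, adjusted p = 0.197), and it passed only without that same library, at 1.41 (adjusted p = 0.0205).

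gh10-4, from a xylanase family, showed the widest fold differences of the 9 tested genes in both comparisons of set-2 H3G34R, but not in set-2 ash1(Y888F) against H3G34R, where gh5-1 did. Its sense reads were 19 and 18 in H3G34R, 2 and 9 in set-2 ash1(Y888F), and 229 and 135 in set-2 H3G34R. The same libraries had 1.83 and 1.72, 0.271 and 1.34, and 23.1 and 15.1 CPM. In set-2 H3G34R the log2 difference was 3.42 (SE 0.412, adjusted p = 6.16e-04) from H3G34R and 4.59 (SE 0.501, adjusted p = 0.00159) from set-2 ash1(Y888F), a 24.1-fold change. The size of the second difference rested on few reads, being 3.83 without set-2 ash1(Y888F) replicate 1 and 6.08 without replicate 2, and it passed in both. The lower level of set-2 ash1(Y888F) relative to H3G34R, −1.17 (SE 0.638, adjusted p = 0.163), did not pass with all libraries and passed without set-2 ash1(Y888F) replicate 2, at −2.65 (adjusted p = 0.0360).

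gh10-2, the other of the members from this xylanase family, was near the detection floor on its sense strand and was left out of the test by the filter on low counts. It had 5 and 4 sense reads in H3G34R, 0 and 1 in set-2 ash1(Y888F), and 7 and 1 in set-2 H3G34R. A floor of 3 reads is 0.287 to 0.445 CPM in these libraries, so no fold is given. With no filter on low counts the adjusted p was 0.212, 0.983 and 0.260 for set-2 ash1(Y888F) against H3G34R, set-2 H3G34R against H3G34R and set-2 H3G34R against set-2 ash1(Y888F). Differences in its sense RNA were not detectable at this depth.

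Among the regulators, the pair that drives cellulase induction separated. clr-1 was 2.22-fold higher in set-2 ash1(Y888F) and 2.85-fold higher in set-2 H3G34R than in H3G34R, while clr-2 was 3.08-fold and 4.71-fold lower in the same groups. The catabolite repressor gene cre-1 was 1.98-fold higher in set-2 H3G34R than in H3G34R, and the xylanase regulator gene xlr-1 was 1.71-fold higher in set-2 H3G34R than in set-2 ash1(Y888F).

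Sense reads of clr-1 numbered 287 and 344 in H3G34R, 432 and 511 in set-2 ash1(Y888F), and 790 and 831 in set-2 H3G34R, at mean levels of 30.3 ± 3.71, 67.2 ± 12.2 and 86.5 ± 9.55 CPM (SD, n = 2 each). The libraries of the 3 groups did not overlap. The log2 difference from H3G34R was 1.15 (SE 0.171, adjusted p = 0.00200) in set-2 ash1(Y888F) and 1.51 (SE 0.171, adjusted p = 4.87e-04) in set-2 H3G34R. Between those groups it was 0.36 (SE 0.166, adjusted p = 0.127) and passed only without set-2 ash1(Y888F) replicate 2, at 0.56 (adjusted p = 0.0272).

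clr-2, whose induction on cellulose depends on CLR-1, had 57 and 48 sense reads in H3G34R, 14 and 9 in set-2 ash1(Y888F), and 12 and 8 in set-2 H3G34R. These were 5.49 and 4.59, 1.90 and 1.34, and 1.21 and 0.898 CPM. H3G34R was again apart from the other 4 libraries. The log2 difference was −1.62 (SE 0.332, adjusted p = 0.00682) in set-2 ash1(Y888F), with an adjusted p of 0.05003 without H3G34R replicate 1, where it no longer passed. It was −2.23 (SE 0.337, adjusted p = 0.00147) in set-2 H3G34R. Between set-2 H3G34R and set-2 ash1(Y888F) the value of −0.61 (SE 0.411, adjusted p = 0.279) did not pass. The reads of clr-1 per read of clr-2 were 5.04 and 7.17 in H3G34R, 30.9 and 56.8 in set-2 ash1(Y888F), and 65.8 and 103.9 in set-2 H3G34R, so that every library labelled set-2 had a higher ratio than both others.

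**Figure D2:**
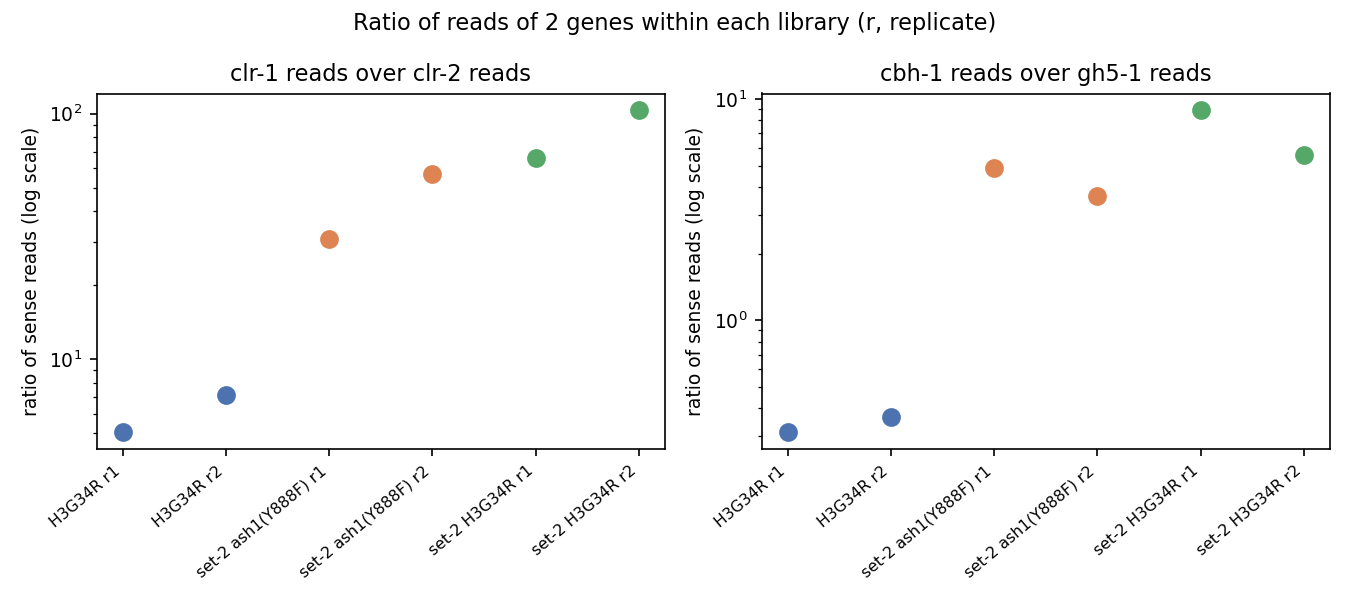
Sense reads of clr-1 over those of clr-2 (left) and of cbh-1 over those of gh5-1 (right) in each of the 6 libraries (points, log y axis). Both ratios are lowest in the H3G34R libraries, at 5.04 and 7.17 on the left and 0.311 and 0.365 on the right.

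xlr-1 had 124 and 154 sense reads in H3G34R, 72 and 88 in set-2 ash1(Y888F), and 180 and 186 in set-2 H3G34R, with means of 13.3 ± 1.96, 11.4 ± 2.34 and 19.5 ± 1.91 CPM (SD, n = 2 each). Set-2 H3G34R was above both other groups, which overlapped. The log2 difference from set-2 ash1(Y888F) was 0.78 (SE 0.217, adjusted p = 0.0303), a call that did not hold without H3G34R replicate 1 (adjusted p = 0.0505) or 2 (0.0514), set-2 ash1(Y888F) replicate 1 (0.104), or either set-2 H3G34R replicate (0.0889 and 0.153). Against H3G34R it was 0.55 (SE 0.209, adjusted p = 0.0566), just short of the threshold, and it passed with only the 4 libraries compared (0.0265) and without set-2 ash1(Y888F) replicate 1 (0.0282) or 2 (0.0279). For xlr-1, set-2 ash1(Y888F) against H3G34R gave −0.23 (SE 0.219, adjusted p = 0.410).

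cre-1 was well covered, with 2391 and 3255 sense reads in H3G34R, 2773 and 2686 in set-2 ash1(Y888F), and 4254 and 5736 in set-2 H3G34R. The means were 271 ± 57.2, 387 ± 16.2 and 536 ± 152 CPM (SD, n = 2 each), and the groups did not overlap. Against H3G34R, set-2 H3G34R was higher by 0.99 on the log2 scale (SE 0.225, adjusted p = 0.00840). Without H3G34R replicate 1 that value was 0.78 (adjusted p = 0.0638), and without set-2 H3G34R replicate 2 it was 0.67 (adjusted p = 0.0515). The log2 values of 0.52 (SE 0.224, adjusted p = 0.0932) for set-2 ash1(Y888F) against H3G34R and 0.47 (SE 0.224, adjusted p = 0.141) for set-2 H3G34R against set-2 ash1(Y888F) did not pass.

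In set-2 ash1(Y888F) against H3G34R, 2 of the 9 tested members were higher (gh3-4 and clr-1), 2 lower (gh5-1 and clr-2) and 5 did not pass, and gh10-2 was not tested. Over all 8561 genes tested, 51.8% passed in this comparison, 26.3% higher and 25.5% lower, and 2754 genes instead of 4435 passed without H3G34R replicate 1. In set-2 H3G34R against H3G34R, 5 of 9 were higher (cbh-1, gh3-4, gh10-4, clr-1 and cre-1), 2 lower (gh5-1 and clr-2) and 2 did not pass, where 61.7% of all genes passed, 30.7% higher and 31.1% lower. In set-2 H3G34R against set-2 ash1(Y888F), 3 of 9 were higher (cbh-1, gh10-4 and xlr-1) and 6 did not pass, where 38.1% of all genes passed, 18.2% higher and 19.9% lower. No member was lower in the last comparison, 0 by edgeR, 0 at an unadjusted p under 0.05 and 0 by DESeq2. There, 3264 genes passed in all, 1551 without set-2 H3G34R replicate 1 and 1388 without replicate 2. H3G34R libraries enter both of the first comparisons, so their counts are not independent of each other.

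**Figure D3:**
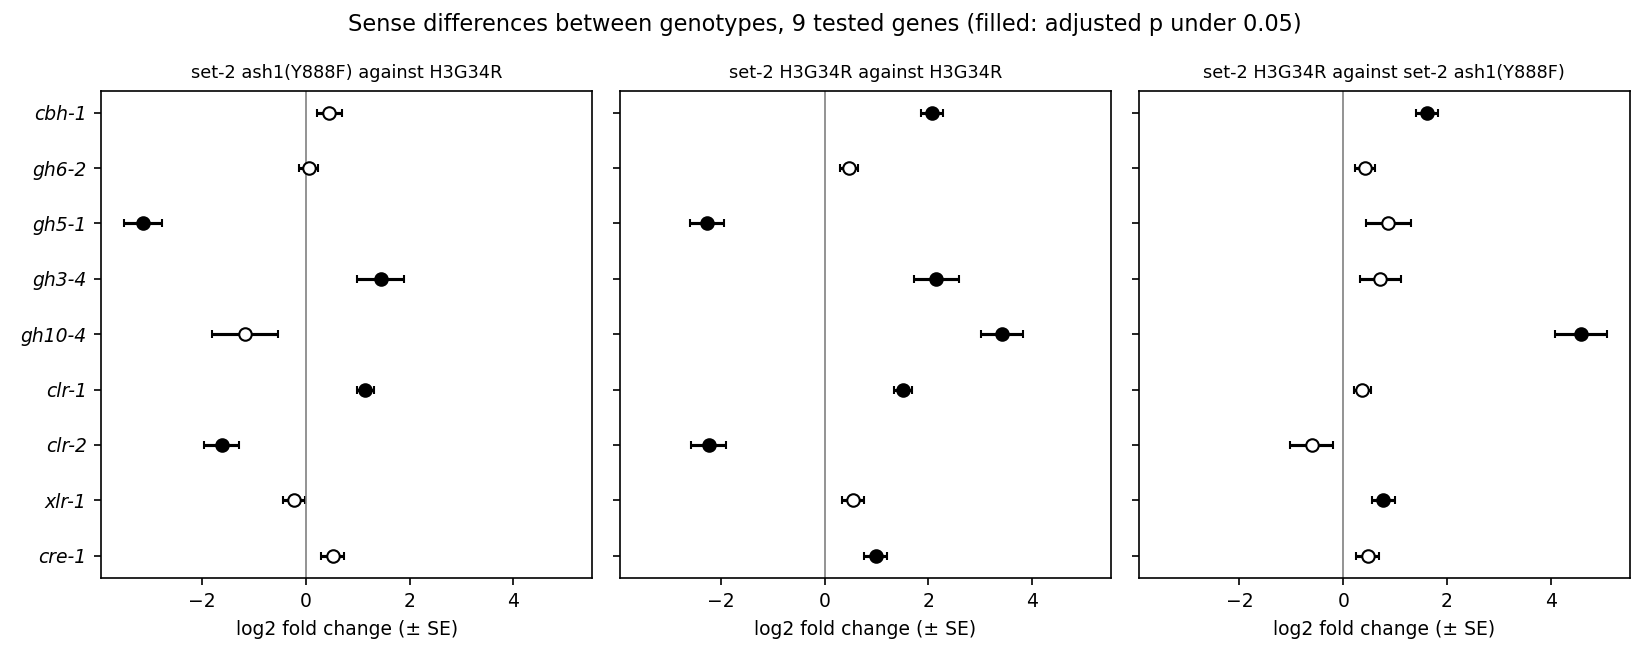
Log2 difference of sense levels with its SE (x axis) for the 9 tested genes in the 3 comparisons, with filled points where the adjusted p was under 0.05. gh5-1 and clr-2 lie left of 0 in both comparisons with H3G34R, and gh10-4 has the widest differences, 3.42 and 4.59, in the comparisons of set-2 H3G34R.

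Related genes were read as context, from lists drawn up by gene family or pathway. Cellulase families other than the members held 7 genes, of which 6 were tested, and none had more than 73 sense reads in a library. Against H3G34R, each group labelled set-2 had 1 gene that was higher, 2 that were lower and 3 that did not pass, where 51.8% of all genes passed in the comparison of set-2 ash1(Y888F), as did 61.7% in that of set-2 H3G34R. The 2 lower genes were gh6-1, with 70 and 55 sense reads in H3G34R, 4 and 2 in set-2 ash1(Y888F) and 0 and 4 in set-2 H3G34R, and gh7-3, with 16 and 16, 1 and 0, and 1 and 0. Their symbols place them in the families of gh6-2 and cbh-1. Both genes passed the filter on low counts only through H3G34R, and their other libraries were near the floor of 3 reads, so their reads are given without a fold. gh7-2 was higher by 1.10 (adjusted p = 0.0124) and 1.14 (adjusted p = 0.00744). Between the groups labelled set-2, 0 of the 6 passed by edgeR, where 38.1% of all genes did. The median log2 difference of the list was −0.15, 0.27 and 0.08 in the 3 comparisons.

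Beta-glucosidase families held 8 further genes, all tested. In set-2 ash1(Y888F) 3 were higher and 4 lower than in H3G34R, in set-2 H3G34R 4 were higher and 2 lower, and 4 were higher in set-2 H3G34R than in set-2 ash1(Y888F). Over all genes, 26.3% were higher and 25.5% lower in the first comparison, 30.7% and 31.1% in the second, and 18.2% and 19.9% in the third. gh3-5 had 196 and 224 sense reads in H3G34R, 580 and 635 in set-2 ash1(Y888F) and 1458 and 1119 in set-2 H3G34R, log2 differences from H3G34R of 2.10 (adjusted p = 1.29e-04) and 2.76 (adjusted p = 4.81e-05). gh3-6 was lower, with 178 and 131, 9 and 13, and 38 and 33 reads, differences of −3.24 (adjusted p = 4.02e-04) and −1.97 (adjusted p = 9.56e-04). gh3-2 had 364 and 373, 554 and 602, and 1078 and 938 reads, 1.22 (adjusted p = 4.09e-04) and 1.60 (adjusted p = 1.20e-04) above H3G34R on the log2 scale. In set-2 H3G34R against set-2 ash1(Y888F), the lowest adjusted p was that of gh3-3, at 1.48 (adjusted p = 0.00331), followed by gh3-5 at 0.66 (adjusted p = 0.0117) and gh3-6 at 1.26 (adjusted p = 0.0311). Medians were −0.54, 0.59 and 0.72 on the log2 scale. Of the 4 further genes of xylan-degrading families, 3 were tested, of which 2 were higher and 1 lower in set-2 ash1(Y888F) than in H3G34R, and 1 was lower in each other comparison. gh10-3 was highest in the set-2 ash1(Y888F) pair, with 43 and 20, 148 and 215, and 39 and 35 sense reads, 3.09 on the log2 scale above H3G34R (adjusted p = 9.68e-04) and with a difference of −2.72 for set-2 H3G34R against set-2 ash1(Y888F) (adjusted p = 0.00322), the reverse of gh10-4. gh10-1, the lower gene in both comparisons with H3G34R, had 29 and 21, 4 and 5, and 11 and 4 reads and passed the filter only through H3G34R. gh11-1 was higher in set-2 ash1(Y888F), 2.25 (adjusted p = 0.0366), and the list medians were 2.25, 0.38 and −1.07.

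Genes that act after the enzymes were also mixed. Of 4 genes for cellodextrin uptake and oxidation, the cellobiose dehydrogenase gene cdh-1 was lower than in H3G34R in both groups, with log2 differences of −1.21 (adjusted p = 0.00260) and −1.02 (adjusted p = 0.00335). The transporter genes cdt-1 and cdt-2 passed in no comparison. NCU05853 had 0 and 2 sense reads in H3G34R, 0 and 6 in set-2 ash1(Y888F) and 32 and 43 in set-2 H3G34R. It was called higher in set-2 H3G34R against both others, but it passed the filter only through set-2 H3G34R and the other libraries were near the floor, so no fold is given. All 4 genes of a pentose catabolism list passed against H3G34R in both groups, 3 higher and 1 lower, where 51.8% and 61.7% of all genes passed. The lower one was the xylose reductase gene xr, with 1043 and 1155 reads in H3G34R, 151 and 174 in set-2 ash1(Y888F) and 531 and 481 in set-2 H3G34R, differences of −2.19 (adjusted p = 9.26e-05) and −0.97 (adjusted p = 9.79e-04). It was also the single gene of the list that passed between the groups labelled set-2, at 1.22 for set-2 H3G34R against set-2 ash1(Y888F) (adjusted p = 0.00183). NCU00643 was higher by 3.88 (adjusted p = 2.61e-04) and 4.10 (adjusted p = 1.52e-04), and NCU00891 by 1.97 (adjusted p = 3.61e-04) and 2.45 (adjusted p = 1.30e-04).

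Other regulators of these genes were read in the same way. Of 6 tested, 1 was lower in set-2 ash1(Y888F) than in H3G34R, 3 were higher and 2 lower in set-2 H3G34R than in H3G34R, and 0 passed by edgeR between the groups labelled set-2, where 51.8%, 61.7% and 38.1% of all genes passed. The glucose-sensing regulator gene col-26 had a mean of 129 ± 3.96 CPM in H3G34R, against 60.0 ± 14.7 CPM in the set-2 ash1(Y888F) pair and 74.8 ± 6.35 CPM in set-2 H3G34R (SD, n = 2 each), log2 differences of −1.11 (adjusted p = 0.00235) and −0.79 (adjusted p = 0.00664). The corepressor gene rcm-1 was higher by 0.55 in set-2 H3G34R (adjusted p = 0.00754), and NCU00646 had −1.57 (adjusted p = 0.0166). On a list of 8 genes for glucose supply and gluconeogenesis, 2 were higher and 3 lower in set-2 ash1(Y888F) than in H3G34R, 3 higher and 1 lower in set-2 H3G34R than in H3G34R, and 1 higher and 3 lower in set-2 H3G34R than in set-2 ash1(Y888F), which is to be read against the same shares. In set-2 ash1(Y888F) against H3G34R the lowest adjusted p belonged to acu-3, acu-5 and gla-1, in set-2 H3G34R against H3G34R to sor-4, acu-6 and acu-5, and in the last comparison to sor-4, acu-3 and acu-6. The isocitrate lyase gene acu-3 was 2.02 above H3G34R in set-2 ash1(Y888F) (adjusted p = 9.26e-05), and its log2 difference in set-2 H3G34R against set-2 ash1(Y888F) was −1.14 (adjusted p = 0.00172). The acetyl-CoA synthetase gene acu-5 was higher than in H3G34R by 0.82 (adjusted p = 0.00294) and 1.19 (adjusted p = 5.15e-04). The glucoamylase gene gla-1 had −1.15 in set-2 ash1(Y888F) against H3G34R (adjusted p = 0.0151). sor-4, a synonym of which is rco-3, a glucose transport gene, was higher in set-2 H3G34R by 1.40 (adjusted p = 1.87e-04) against H3G34R and 1.22 (adjusted p = 0.00124) against set-2 ash1(Y888F), with 232 and 247, 193 and 174, and 615 and 527 reads. The phosphoenolpyruvate carboxykinase gene acu-6 was lower by a log2 value of −2.57 (adjusted p = 2.08e-04) in set-2 H3G34R, with 6076 and 7006 reads in H3G34R, 2599 and 3077 in set-2 ash1(Y888F) and 844 and 1132 in set-2 H3G34R. Against set-2 ash1(Y888F) its value was −1.93 (adjusted p = 0.00188).

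The genes next to the members in the reference were read as well. Of 20 neighbours, 14 were tested, and 4 were higher and 4 lower in set-2 ash1(Y888F) than in H3G34R, 4 higher and 2 lower in set-2 H3G34R than in H3G34R, and 5 higher in set-2 H3G34R than in set-2 ash1(Y888F), against 51.8%, 61.7% and 38.1% of all genes passing. Beside gh5-1, NCU00763 had 124 and 128 sense reads in H3G34R, 11 and 21 in set-2 ash1(Y888F), and 95 and 83 in set-2 H3G34R. Like gh5-1 it was lower in set-2 ash1(Y888F), with a log2 difference of −2.40 (adjusted p = 0.00120), but in set-2 H3G34R its value of −0.36 (adjusted p = 0.263) did not pass. NCU17058, beside gh10-4, did not pass in any comparison (adjusted p = 0.629, 0.212 and 0.498). NCU06973, beside xlr-1, had 108 and 115, 5 and 3, and 16 and 9 reads and passed the filter only through H3G34R. By edgeR, NCU08806, beside cre-1, was higher by 0.51 (adjusted p = 0.0289), 0.995 (0.00144) and 0.48 (0.0419) in the 3 comparisons. NCU04951, beside gh3-4, was above H3G34R by 1.06 (adjusted p = 0.00119) and 1.14 (6.47e-04). On the other side of cre-1, bdp-1 did not pass against H3G34R, with log2 differences of −0.56 (adjusted p = 0.0743) and −0.41 (0.148). On the other side of gh3-4, NCU04953 was lower in set-2 ash1(Y888F), at −1.42 (adjusted p = 0.00514). Its value of −0.37 (adjusted p = 0.210) in set-2 H3G34R did not pass. The neighbours named here were singled out after their values were seen.

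Antisense reads, those on the strand opposite to a gene, were rare for most members. Over all libraries they made up 0.218% to 2.63% of the reads of cbh-1, gh6-2, gh5-1, gh10-4, clr-2 and xlr-1, 0.528% for cre-1 and 3.996% for clr-1. They were 21.3% for gh3-4 and 87.8% for gh10-2. Only gh3-4, gh10-2, clr-1 and cre-1 had enough of them to be tested, gh3-4 and gh10-2 through set-2 H3G34R, where they were highest. Of the 4068 antisense genes tested, 45.8%, 42.8% and 37.8% passed in set-2 ash1(Y888F) against H3G34R, set-2 H3G34R against H3G34R and set-2 H3G34R against set-2 ash1(Y888F). The median log2 difference of all antisense genes tested was 0.73, 0.20 and −0.39 in the same comparisons.

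Most reads on gh10-2 lay on its antisense strand, which held 4 and 3 reads in H3G34R, 7 and 9 in set-2 ash1(Y888F), and 55 and 52 in set-2 H3G34R. These reads passed the filter on low counts only through set-2 H3G34R. In H3G34R they were near the floor of 3 reads, so no fold is given. In the reference, the annotated span of gh10-2 overlaps that of NCU08190. NCU08190 had 44 and 69 sense reads in H3G34R, 72 and 93 in set-2 ash1(Y888F), and 446 and 496 in set-2 H3G34R, and log2 differences of 1.11 (adjusted p = 0.0170) and 3.21 (adjusted p = 1.82e-04) from H3G34R. Per 100 sense reads of NCU08190, gh10-2 had 9.09 and 4.35, 9.72 and 9.68, and 12.3 and 10.5 antisense reads. The antisense reads of gh10-2 thus moved with the sense reads of its neighbour, and the part of NCU08190 transcripts in them was not tested. With reads of both strands counted together, gh10-2 had 8 and 7, 6 and 9, and 54 and 46 reads. It would then pass in set-2 H3G34R against both other groups, although its sense reads did not differ detectably. These counts too passed the filter on low counts only through set-2 H3G34R, the group where they were highest.

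**Figure D4:**
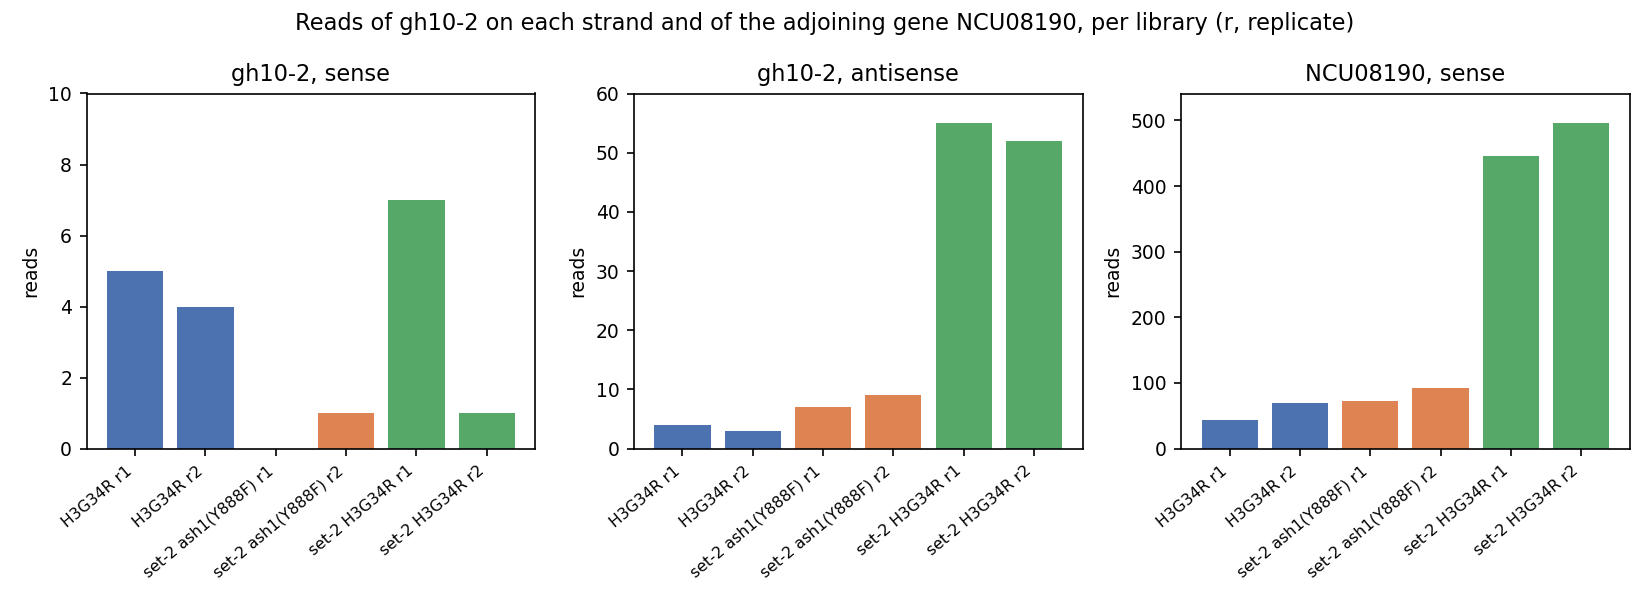
Reads of gh10-2 on the sense strand (left) and the antisense strand (middle), and sense reads of the adjoining gene NCU08190 (right), in each library (bars from 0, with a separate y scale in each panel). Sense reads of gh10-2 are at most 7, whereas its antisense reads reach 55 and 52 in set-2 H3G34R, the group where NCU08190 has 446 and 496 reads.

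The antisense reads of clr-1 were 18 and 9 in H3G34R, 27 and 17 in set-2 ash1(Y888F), and 31 and 31 in set-2 H3G34R. They were higher than in H3G34R by 1.25 (adjusted p = 0.0213) and 1.34 (adjusted p = 0.0112), where the antisense medians were 0.73 and 0.20. The values for clr-1 were close to the log2 differences of its sense reads. The first call was lost without H3G34R replicate 2 (adjusted p = 0.182) or set-2 ash1(Y888F) replicate 1 (0.184), and the second without H3G34R replicate 2 (0.136) or set-2 H3G34R replicate 2 (0.0613). gh3-4 had 8 and 7, 9 and 15, and 20 and 19 antisense reads. It passed the antisense filter only through set-2 H3G34R, so no fold is given here. cre-1 differed from these in that its antisense reads were most numerous in set-2 ash1(Y888F), with 12 and 17, 23 and 31, and 14 and 15 reads. There they were 1.46 on the log2 scale above H3G34R (adjusted p = 0.00644), a call lost without H3G34R replicate 1 (0.0513) or set-2 ash1(Y888F) replicate 2 (0.0971). For set-2 H3G34R against set-2 ash1(Y888F) the value was −1.31 (adjusted p = 0.0161), not past the threshold without replicate 2 of set-2 ash1(Y888F) (0.165) or replicate 1 of set-2 H3G34R (0.0905).

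By the rule of the highest Pearson correlation of log2 CPM over the 6 libraries, the genes most like cbh-1 were NCU03398, NCU02601 and NCU05648, each with r = 0.999. The genes most like gh10-4 were NCU08975 (r = 0.998), NCU04048 (0.997) and NCU05928 (0.996), and those most like clr-2 were NCU08972 (0.998), NCU03596 (0.998) and NCU02539 (0.997). Among the 8552 other tested genes, 365 reached an r of 0.95 with cbh-1, 188 with gh10-4 and 544 with clr-2. These correlations describe 6 libraries that fall into 3 groups, and they leave out the size of a change. NCU04048 had 54.1 and 53.1 CPM in H3G34R, 46.8 and 53.6 in set-2 ash1(Y888F), and 67.7 and 65.5 in set-2 H3G34R. NCU08975 had at most 0.482 CPM in the libraries of H3G34R and set-2 ash1(Y888F), near the floor. NCU08972 had 3.86 and 2.49 CPM in H3G34R but at most 0.678 CPM in the other libraries, also near the floor. Each of NCU08975 and NCU08972 passed the filter on low counts only through the group where it was highest.

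Against wild type, the members are described from the authors' deposited tables, 1 for each genotype. Which count column they tested is not stated, and the mutant levels derived from them were 0.870 to 1.11 times those measured here in the column of both strands. Their values for gh10-2, whose reads were mostly antisense, and gh3-4 may therefore include antisense reads. In the authors' deposited table for H3G34R, 1 member was higher than wild type, 7 lower (gh10-2 among them) and 2 not past an adjusted p of 0.05, where 64.5% of all genes passed. That table gives cbh-1 a log2 fold change of −3.48 (adjusted p = 1.93e-36), gh3-4 −2.03 (adjusted p = 1.32e-06) and cre-1 −1.39 (adjusted p = 1.80e-17), and the single higher gene was gh5-1, at 2.94 (adjusted p = 3.48e-09). In the authors' deposited table for set-2 ash1(Y888F), 2 members were higher, gh3-4 at 2.34 (adjusted p = 0.00158) and xlr-1 at 1.30 (adjusted p = 0.0220), and 8 did not pass, where 17.3% of all genes passed. cbh-1 is at 0.02 (adjusted p = 0.987) in that authors' deposited table. In the authors' deposited table for set-2 H3G34R, 1 member was higher, gh10-4 at 2.72 (adjusted p = 4.27e-09), and 4 were lower, cbh-1 at −1.57 (adjusted p = 5.53e-12), clr-2 at −1.78 (adjusted p = 0.0103), xlr-1 at −0.72 (adjusted p = 0.00751) and cre-1 at −0.55 (adjusted p = 0.00423), while 5 did not pass, where 51.3% of all genes passed.

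The wild-type level behind each table was derived from the authors' mean and fold change on the assumption that each table held as many wild-type as mutant libraries, and it is in CPM of both strands together. For cbh-1 it came to 43.9 CPM in the H3G34R table, 48.4 CPM in the set-2 H3G34R table and 5.19 CPM in the set-2 ash1(Y888F) table. The first was 8.45 times the last. For gh3-4 these derived levels were 11.5, 12.8 and 1.34 CPM, and for xlr-1 29.2, 32.3 and 4.54 CPM. gh5-1 differed from them, with 1.47, 1.58 and 1.57 CPM. Derived levels are approximate. In the set-2 ash1(Y888F) table the derived mutant level of gh3-4 was 6.75 CPM, against 7.28 CPM measured on both strands, and that of gh10-2 was 0.935 CPM, against 1.07 CPM. For all 10 members the derived wild types of the H3G34R and set-2 H3G34R tables were within 1.07 to 1.19 times of each other. The fold changes of the set-2 ash1(Y888F) table therefore have another base than those of the other tables and are given side by side only. Thus cbh-1 was at 5.27 CPM on average in set-2 ash1(Y888F) and 16.1 CPM in set-2 H3G34R, while its authors' fold change was near 0 in the first and negative in the second. gh5-1, with a like wild-type level behind all 3 tables, averaged 11.4 CPM in H3G34R, against 1.29 CPM in the set-2 ash1(Y888F) pair and 2.37 CPM in set-2 H3G34R.

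**Figure D5:**
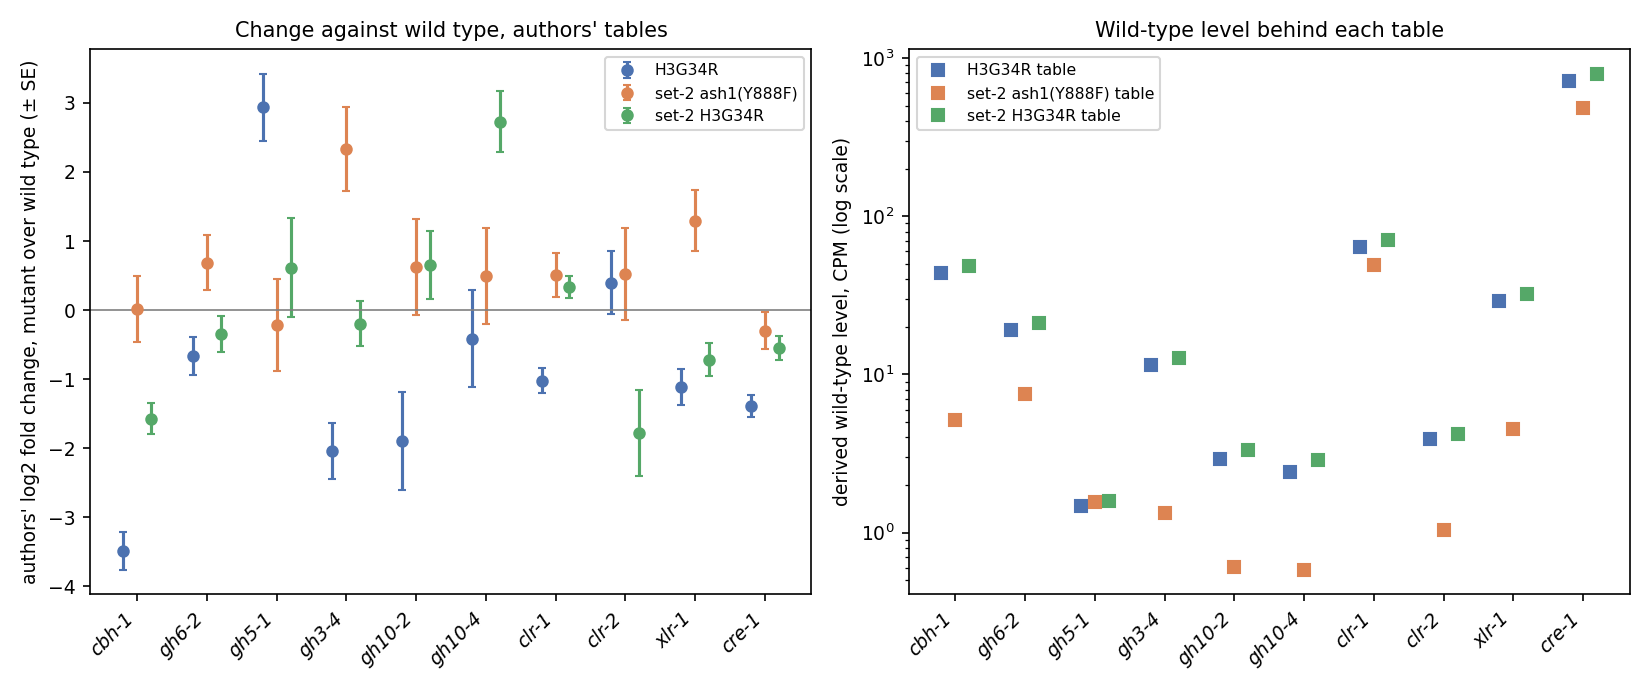
Left, log2 fold change against wild type with its SE for the 10 genes in the authors' 3 tables; right, the derived wild-type level in CPM of both strands behind each table (log y axis). For cbh-1 the derived wild type is 5.19 CPM behind the set-2 ash1(Y888F) table and 43.9 and 48.4 CPM behind the others, whereas for gh5-1 it is 1.47 to 1.58 CPM behind all 3.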

How the data were processed

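The authors deposited raw counts of stranded poly-A libraries, 1 table each, for which the submitters' processing notes name STAR 2.6.0; the genome build is not given in the sources used here. Of 3 count columns, the single-strand column with more reads in genes was used as sense and the other as antisense; 4 lines of unassigned reads were left out. The labels have 1 sample per genotype with 2 libraries, numbered here by strain or file; separate cultures are not stated, so p-values reflect the spread between libraries alone, which may be technical.

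Sense counts of all 6 libraries were tested in 1 fit with edgeR 4.0.16 (glmQLFit and glmQLFTest, TMM, filterByExpr, two-sided, Benjamini-Hochberg over all genes, threshold 0.05). An SE is the log2 difference divided by the root of F. Antisense counts were tested likewise on the sense library sizes. Log2 CPM for correlations used a prior count of 2. The procedure was tested on simulated data. Alternatives were DESeq2 1.42.0, its size factors, no filter, both strands, only the compared libraries, and leaving out each library. Floors of 3 reads cover counting error only.

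The authors' wild-type tables, for which the submitters' processing notes name DESeq2 1.18.1, have no header; their columns were identified from the values as the authors' mean normalised signal, log2 fold change, its error, a Wald score from the authors, and the authors' p-value and adjusted p-value. Derived wild-type levels were put on the CPM scale by the median ratio over genes whose mean exceeded 100 and whose log2 fold change lay between −3 and 3. The wild-type libraries were not used here. All 10 members are named. Lists name up to 3 genes with the lowest adjusted p among those that passed in a comparison. List genes and neighbours near the floor that passed the filter only through 1 group are given by reads. The antisense strands of gh10-2 and gh3-4, which also passed only through 1 group, are given likewise. The range of antisense gh3-4 with libraries left out is printed only to report its sign change. Members and lists were chosen with earlier results of these data known. Software was R 4.3.3, Python 3.11.15, pandas 2.3.3 and matplotlib 3.10.9.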

Additional observations from a re-analysis of the deposited data

How the results depend on the processing

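Across the members and alternatives, 349 values kept their direction and their side of the threshold, 28 lost and 9 gained the threshold, and 5 changed sign. In every alternative run, gh5-1 and clr-1 passed against H3G34R in both groups, cbh-1, gh10-4, gh3-4 and clr-2 in set-2 H3G34R against H3G34R, and cbh-1 and gh10-4 in set-2 H3G34R against set-2 ash1(Y888F). The 5 sign changes were among differences that never passed. With libraries left out in turn, gh6-2 in set-2 ash1(Y888F) against H3G34R ranged from −0.089 (without H3G34R replicate 1) to 0.21 and was −0.016 without set-2 ash1(Y888F) replicate 2. Antisense cre-1 in set-2 H3G34R against H3G34R ranged from −0.078 (without H3G34R replicate 1) to 0.41. In set-2 H3G34R against set-2 ash1(Y888F), antisense gh3-4 ranged from −0.10 (without set-2 ash1(Y888F) replicate 1) to 0.76 and antisense clr-1 from −0.15 (without replicate 2) to 0.38. Antisense gh3-4 passed the filter on low counts only through set-2 H3G34R. Its range is therefore given only to report the sign change, not as the size of a difference. The cause of the sign changes was not tested.

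Leaving out 1 library at a time, 2754 to 4565 genes passed in set-2 ash1(Y888F) against H3G34R, 3803 to 5879 in set-2 H3G34R against H3G34R and 1388 to 3761 in set-2 H3G34R against set-2 ash1(Y888F). Members passing numbered 2 to 4, 6 to 9 and 2 to 5. Antisense genes passing numbered 1419 to 1872, 1274 to 1894 and 1018 to 1669. With 1 library left in a group, that library is assumed to vary like the other groups. No paired analysis was possible because the labels give the libraries no replicate numbers shared between genotypes. Low counts limit gh10-2 (at most 7 sense reads), clr-2 and gh5-1 in the groups labelled set-2, and gh10-4 in set-2 ash1(Y888F).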
